A study of Mus musculus with 6 samples.

Results

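Follicular B cells stay alive in the spleen on tonic signals, and a set of 10 genes that relay the survival signal of BAFF and the inflammatory signal of TNF was followed here: Tnfrsf13b, Tnfrsf13c, Tnfrsf1a, Tnfrsf1b, Traf1, Traf2, Traf3, Traf5, Traf6 and Map3k14. The genes were chosen by name, as members of the TNF receptor family, its TRAF adaptors and the kinase NIK, and they hold 11 of the 25017 entries and 10 of the 20458 gene names of the deposited table. RNA was sequenced from follicular B cells of C57BL/6 mice, sorted as B220+AA4.1-CD23+CD21lo, in 3 samples of CD23Cre+Myh9wt/fl and 3 samples of CD23Cre+Myh9fl/fl mice. All 6 samples carried Cre recombinase under the CD23 promoter, which is active from the transitional B cell stage. The wt/fl cells lose 1 allele of Myh9 and the fl/fl cells lose both, so B cells with a single deleted allele served as controls and no wild-type sample was analysed here. The labels give no age for the mice. The authors deposited 1 value per genotype, pooled over its 3 samples, as FPKM, a fragment count scaled to transcript length and to all mapped fragments. No spread between samples, standard error or test across samples can therefore be given, the read depth is unknown, and every difference below is a description of pooled values.

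BAFF, a cytokine of the TNF family, binds BAFF-R and TACI on B cells. In resting cells, a complex of TRAF3, TRAF2 and cIAP ubiquitin ligases marks NIK for degradation, and engagement of BAFF-R removes TRAF3, so that NIK accumulates and switches on the noncanonical NF-kB pathway on which mature B cell survival rests. TNF receptors and CD40 use the same adaptors, and TRAF6 links CD40 and Toll-like receptors to the canonical NF-kB pathway. RNA was sequenced to look for signalling pathways that differ without myosin IIa, the product of Myh9, and the question here is how the transcripts of this survival pathway compare.

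The sorted cells carried the transcripts of B cells at high levels. All 12 B cell markers of a fixed list were above 1 FPKM in both genotypes, led by Cd79b at 1638 FPKM in wt/fl against 1739 FPKM in fl/fl followed by Cd79a at 1098 and 1115 FPKM and Cd37 at 834 and 877 FPKM. Of the 12, 1 was at least 1.2-fold higher in fl/fl, Fcer2a, the gene of CD23 (439 and 588 FPKM), against 7.23% of all genes averaging at least 1 FPKM. Myh9, the deleted gene, was at 50.6 FPKM in wt/fl against 21.1 FPKM in fl/fl cells. Only part of Myh9 is floxed, so the level of the whole gene does not tell intact transcripts from those without that part.

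The upstream sequences of the receptor genes for BAFF and of Traf3 are shown because these genes open the pathway and hold it back, and because their motif content ranges from no marked match to a GC-rich stretch with several. They come from RefSeq on build GRCm38.p6, where all 10 genes had a match, and each covers the 250 bases before the annotated start on the gene's own strand, 5′ to 3′. Capitals mark GC boxes (GGGCGG, searched on both strands) and, as the last 10 bases before the start of Traf3, a match to the NF-kB consensus motif. The Tnfrsf13c sequence lies at chr15:82224381-82224630 on the minus strand, that of Tnfrsf13b at chr11:61126505-61126754 on the plus strand, and that of Traf3 at chr12:111166120-111166369 on the plus strand.
Tnfrsf13c: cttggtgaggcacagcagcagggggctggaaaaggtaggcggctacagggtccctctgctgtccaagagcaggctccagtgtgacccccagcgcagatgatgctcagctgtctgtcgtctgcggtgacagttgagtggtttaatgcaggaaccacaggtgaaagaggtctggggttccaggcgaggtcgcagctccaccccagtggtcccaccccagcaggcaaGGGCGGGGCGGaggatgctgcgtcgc
Tnfrsf13b: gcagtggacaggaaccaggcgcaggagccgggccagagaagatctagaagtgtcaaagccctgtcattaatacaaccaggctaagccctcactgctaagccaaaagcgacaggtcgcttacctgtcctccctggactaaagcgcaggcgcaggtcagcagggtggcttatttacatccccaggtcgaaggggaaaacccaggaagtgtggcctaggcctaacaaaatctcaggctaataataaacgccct
Traf3: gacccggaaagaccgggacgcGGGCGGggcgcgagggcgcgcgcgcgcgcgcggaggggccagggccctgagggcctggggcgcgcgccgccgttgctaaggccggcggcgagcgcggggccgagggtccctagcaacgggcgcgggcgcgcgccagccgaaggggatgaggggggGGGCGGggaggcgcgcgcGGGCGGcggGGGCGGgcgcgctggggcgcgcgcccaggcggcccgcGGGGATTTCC

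The NF-kB consensus was found in 1 of the 10 upstream sequences, that of Traf3, and in 3.90% of all 32851 promoters of the same length. A GC box was found in 6 of the 10, namely Map3k14, Tnfrsf13c, Tnfrsf1b, Traf3, Traf5 and Traf6, against 32.7% of all promoters. The TATA box (TATAAA) was found in 0 of the 10 and in 12.4% of all promoters, and the purine-rich PU.1 motif in 0 of the 10 and in 2.44%. The Traf3 sequence had 85.2% G and C, above the upper quartile of 61.2% of all promoters, and that of Tnfrsf13b had 54.0%. A match describes letters only, and the absence of a match says only that these letters are not in the window.

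Tnfrsf13c, which encodes BAFF-R, was by far the most abundant member, and its level was close in both genotypes. Its pooled level was 612.8 FPKM in wt/fl against 569.6 FPKM in fl/fl cells (chr15:82052174-82054766, mm9), a log2 ratio of fl/fl over wt/fl of −0.11. Throughout, log2 ratios were taken with 1 FPKM added to each value, which pulls the ratios of weakly expressed genes toward 0. Of the 9866 genes averaging at least 1 FPKM, 98.8% had a lower level than Tnfrsf13c in wt/fl and 98.7% in fl/fl, where it ranked 115 and 126 from the top.

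Tnfrsf13b, which encodes TACI, a second receptor for BAFF that also binds APRIL and restrains B cell expansion, had the largest positive log2 ratio of the members. It was at 22.2 FPKM in wt/fl against 28.7 FPKM in fl/fl (chr11:60954337-60961144, mm9), a log2 ratio of 0.36. Tnfrsf13c therefore exceeded Tnfrsf13b by 27.6-fold in wt/fl and by 19.8-fold in fl/fl on the FPKM scale, which is per length. The transcript model of Tnfrsf13b in the table spans 6808 bases, whereas the gene spans 26888 bases in RefSeq on GRCm38, so fragments from exons outside the shorter model were not part of the value. The upstream sequence printed for Tnfrsf13b lies before the RefSeq start and may not border the start of the shorter model. TACI is also made by plasma cells, most of which a sort for B220 and CD23 would leave out. The 6 plasma cell markers summed to 118 FPKM in wt/fl against 107 FPKM in fl/fl. Of the 4 above a mean of 1 FPKM, 0 were higher in fl/fl, against 50.5% of all genes. Igj passed this filter only through its level in wt/fl, so its direction in the count was set by the filter. Most of the sum came from Irf4 (60.8 and 58.9) and Xbp1 (48.8 and 45.9), which B cells also express, while Igj, the J chain gene, was at 5.40 and 0.617 FPKM and Sdc1 at 2.30 and 1.13 FPKM, and Tnfrsf17 was listed at 0. The part of such cells in the value of Tnfrsf13b was not tested.

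Of the receptors for TNF itself, Tnfrsf1b had the largest log2 ratio in size of all members, on a difference of −2.04 FPKM, and Tnfrsf1a was the least abundant member. Tnfrsf1b, which encodes TNF receptor 2, the receptor without a death domain that recruits TRAF2, was at 5.71 FPKM in wt/fl against 3.67 FPKM in fl/fl (chr4:144802271-144836773, mm9). Its log2 ratio was −0.52, and without the added 1 FPKM it was −0.64, a 1.56-fold lower level in fl/fl. Tnfrsf1a, which encodes the death domain receptor TNF receptor 1, was at 0.444 and 0.443 FPKM (chr6:125299741-125312501, mm9). It was the only member under a mean of 1 FPKM, so it does not enter the counts below.

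TNF receptor 2 is also made by myeloid cells and T cells. Neutrophil, macrophage and monocyte markers averaging at least 1 FPKM were also lower in fl/fl, and T cell markers went both ways. Neutrophil markers differed most, with a summed level of 372 FPKM in wt/fl against 69.9 FPKM in fl/fl over the list of 10. Of the 10, 7 averaged at least 1 FPKM, Ltf (2.31 and 0.118) only through wt/fl. In fl/fl 7 of the 7 were lower, as were 4880 of all 9866 genes. S100a9 was at 175 and 34.5 FPKM, S100a8 at 145 and 25.8 FPKM and Camp at 15.3 and 1.70 FPKM. Macrophage and monocyte markers summed to 86.6 and 55.5 FPKM, with 4 of 4 lower in fl/fl, led by Lyz2 (72.6 and 44.9), Cd68 (7.41 and 6.10) and Itgam (2.22 and 1.33). Csf1r, counted among the 4, was nearly level (1.42 and 1.39), and most of the drop in the sum was that of Lyz2. T cell markers summed to 25.5 and 23.6 FPKM, with 3 of 5 lower, and the most abundant of them were Lck (14.5 and 14.5), Cd3d (3.02 and 2.31) and Cd3e (1.83 and 1.96). Apart from Elane, a neutrophil gene listed at 0 in fl/fl, 0 markers of these lists were at 0. Their part in the level of Tnfrsf1b was not tested, and in pooled bulk RNA fewer cells of a type cannot be told apart from less RNA per cell. Dendritic cell markers summed to 4.53 and 4.75 FPKM, led by Ccr9 (1.57 and 2.05), Zbtb46 (0.772 and 0.498) and Xcr1 (0.520 and 0.462). Of 7 stromal and follicular dendritic cell markers Pecam1, which B cells also express, made up 71.0 of 71.3 FPKM in wt/fl and 80.0 of 80.3 FPKM in fl/fl, followed by Clu (0.238 and 0.165) and Cxcl13 (0 and 0.115).

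**Figure D1:**
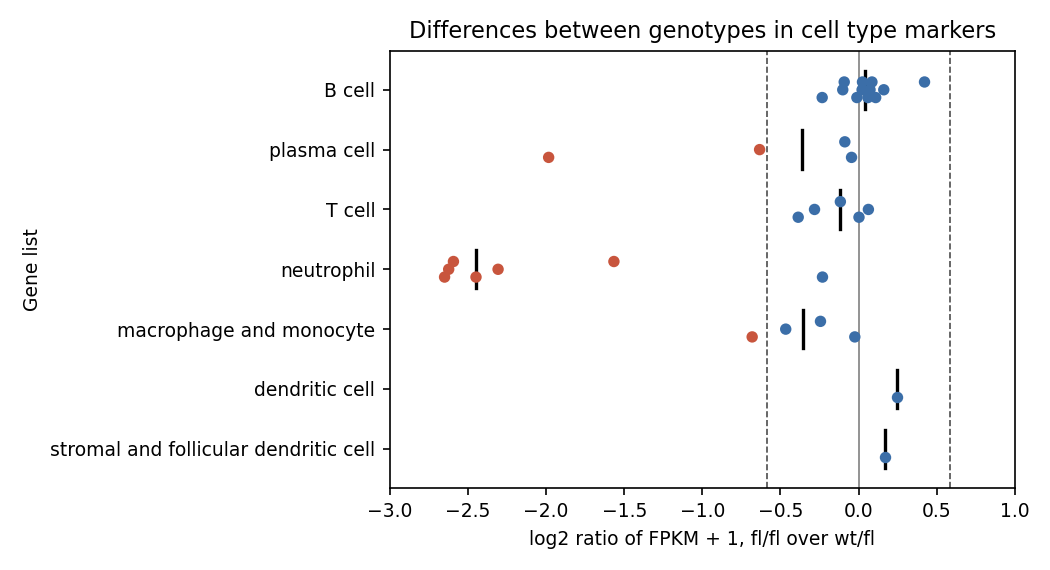
Log2 ratio of FPKM + 1, fl/fl over wt/fl, for each marker gene averaging at least 1 FPKM (points, red past 1.5-fold), by cell type, with the median of each list as a black bar and 1.5-fold as dashed lines. The 12 B cell markers lie around a median of 0.043, with Fcer2a highest at 0.42. Of the 7 neutrophil markers, 6 lie past 1.5-fold below 0, as do 1.53% of all genes.

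All 5 TRAF adaptors had a slightly higher pooled level in fl/fl than in wt/fl, and 50.5% of all genes were higher. Traf5, an adaptor of CD40 and other lymphocyte receptors, was the most abundant, at 49.9 FPKM in wt/fl against 53.0 FPKM in fl/fl (chr1:193821088-193916445, mm9), a log2 ratio of 0.08. It made up 42.0% of the summed level of the 5 TRAFs in wt/fl and 40.7% in fl/fl. The sum of the 5 TRAFs was 119 FPKM in wt/fl against 130.0 FPKM in fl/fl, and Tnfrsf13c exceeded it 5.16-fold and 4.38-fold.

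Traf1, the TRAF without a RING domain, had the largest log2 ratio of the adaptors, 0.32, at 15.0 FPKM in wt/fl against 18.9 FPKM in fl/fl (chr2:34798778-34817292, mm9). Traf2, which brings the cIAP ligases to the receptors, was at 14.4 and 15.2 FPKM (chr2:25373502-25402414, mm9), a log2 ratio of 0.07. Traf6 was at 17.1 and 18.5 FPKM (chr2:101518597-101541131, mm9), a log2 ratio of 0.11. The differences of Traf2, Traf5 and Traf6 lay between the lower and upper quartiles of the log2 ratios of all genes, −0.11 and 0.11.

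Traf3, the adaptor that keeps NIK low, was the only member with more than 1 entry, and its entries differed in opposite directions. Entry IDs have the form that Cuffdiff gives to groups of transcripts with the same coding sequence, so the entries may stand for different protein forms, which the table does not name. The main entry was at 19.3 FPKM in wt/fl against 23.2 FPKM in fl/fl, a log2 ratio of 0.26. The minor entry was at 3.09 FPKM in wt/fl against 1.17 FPKM in fl/fl, a log2 ratio of −0.91. Its share of the gene's level was 13.8% in wt/fl and 4.81% in fl/fl. Summed, Traf3 was at 22.4 and 24.4 FPKM (chr12:112404759-112505359, mm9), a log2 ratio of 0.12. How fragments shared by both entries were divided between the entries cannot be seen in the table, so the split is less certain than the sum. On GRCm38, GENCODE M21 places 4930595D18Rik opposite Traf3 over 18122 bases and Gm26879 opposite Traf5 over 205 bases. It also places pseudogenes opposite Tnfrsf13b (Gm12269, 717 bases) and Traf2 (Gm13433, 240 bases). Strand-specific counting is not stated.

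Map3k14, which encodes NIK, the kinase that TRAF3 holds in check, was at 12.7 FPKM in wt/fl against 14.4 FPKM in fl/fl (chr11:103081078-103128715, mm9), a log2 ratio of 0.17. The level of Traf3 exceeded that of Map3k14 1.77-fold in wt/fl and 1.70-fold in fl/fl, so the balance between the transcripts of the kinase and of its adaptor was nearly the same in both genotypes. Abundance of NIK protein is set mainly by degradation, which these values do not measure.

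**Figure D2:**
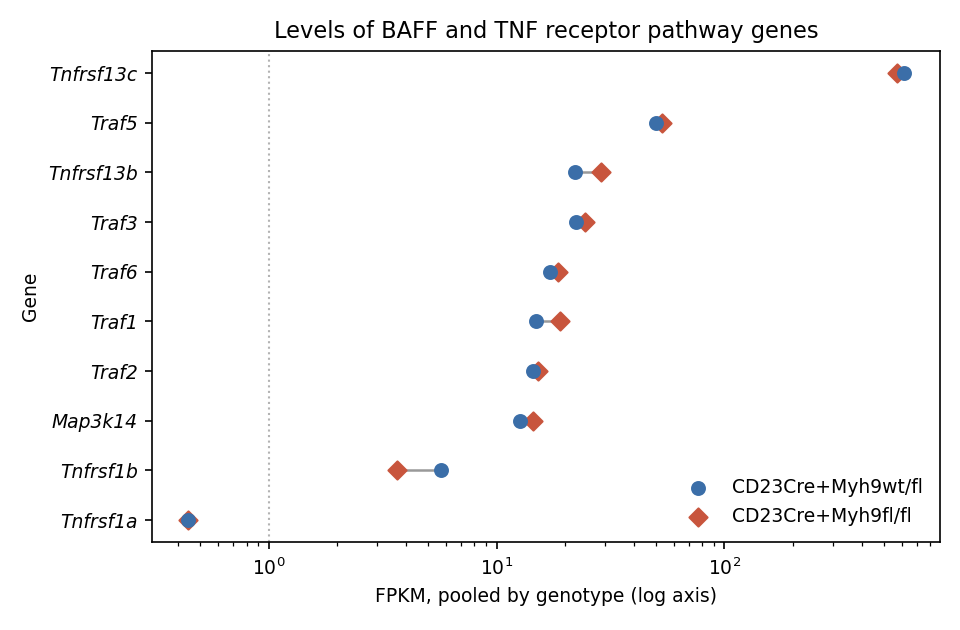
Pooled FPKM (log axis) of the 10 genes in CD23Cre+Myh9wt/fl (blue circles) and CD23Cre+Myh9fl/fl (red diamonds) follicular B cells, each point 1 pooled value with no error bar, and a dotted line at 1 FPKM. Tnfrsf13c lies at the top (612.8 and 569.6 FPKM) and Tnfrsf1a under 1 FPKM in both genotypes, and the widest gap on this log axis is that of Tnfrsf1b.

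In order of level in wt/fl cells, Tnfrsf13c was followed by Traf5, Traf3, Tnfrsf13b, Traf6, Traf1, Traf2, Map3k14, Tnfrsf1b and Tnfrsf1a. In fl/fl cells Tnfrsf13b stood above Traf3 and Traf1 above Traf6, and the other places were the same. Without a spread over samples it cannot be said which neighbours in this order differ.

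Of the 9 members averaging at least 1 FPKM, 0 were past 1.5-fold in either direction, a size that 2.32% of all 9866 genes reached. This count holds with 1 or 0.5 FPKM added, and with 0.1 FPKM or nothing added it was 1, Tnfrsf1b. At the smaller size of 1.2-fold, Tnfrsf13b and Traf1 were higher in fl/fl (2 of 9, against 7.23% of all genes) and Tnfrsf1b was lower (1 of 9, against 8.33% of all genes). The median log2 ratio of the members was 0.11, and that of all genes was 0.0026. In fl/fl, 7 of the 9 were higher, as were 50.5% of all genes. The 5th and 95th percentiles of the log2 ratios of all genes were −0.34 and 0.31, and Tnfrsf1b, Tnfrsf13b and Traf1 lay outside these bounds. Ratios scattered more at low levels. Among the 3919 genes from 1 to 10 FPKM, where Tnfrsf1b lies, the 5th and 95th percentiles were −0.45 and 0.38, and 13.9% were at least 1.2-fold lower in fl/fl. Among the 5329 genes from 10 to 100 FPKM, where 7 of the members lie, the percentiles were −0.26 and 0.27, and 5.20% were at least 1.2-fold higher.

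**Figure D3:**
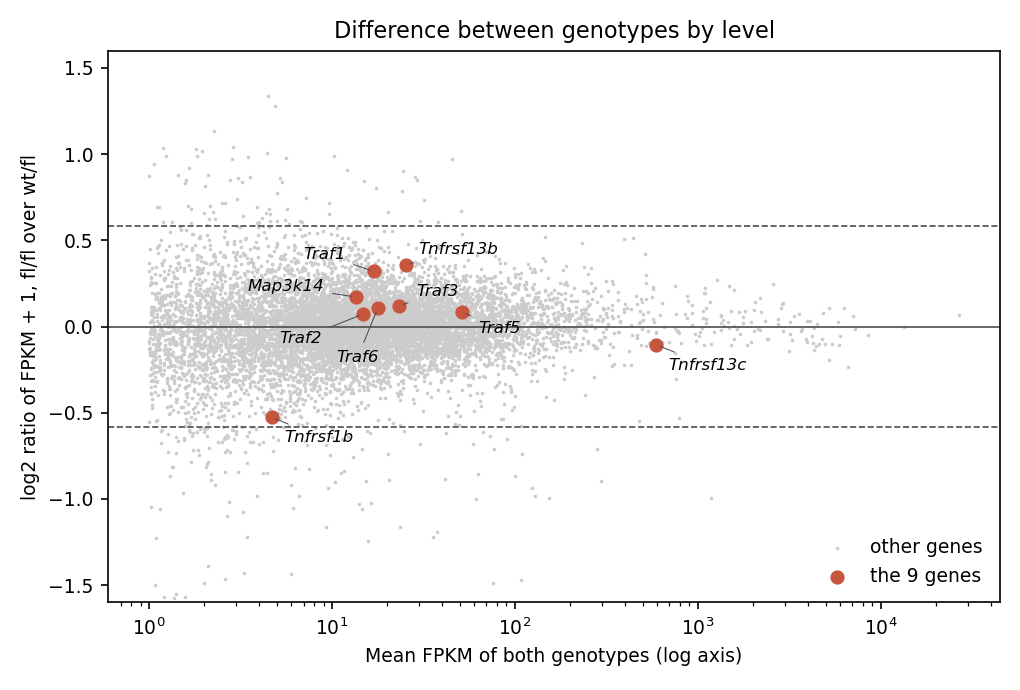
Log2 ratio of FPKM + 1, fl/fl over wt/fl, against the mean FPKM of both genotypes (log axis) for the 9866 genes averaging at least 1 FPKM (grey), with the 9 members in red and 1.5-fold as dashed lines. All 9 members lie between the dashed lines, and 13 other genes lie beyond the limits of the vertical axis at 1.6.

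Another 103 genes of the pathway, listed by role, were set beside the members. All 103 were found in the table, 82 of them had a mean of at least 1 FPKM, and their median log2 ratio was 0.0100. Of the 82, 3 were at least 1.5-fold higher in fl/fl (Tnf, Lta and Fas), against 0.791% of all genes, and 1 was at least 1.5-fold lower (Bcl2l1), against 1.53% of all genes. Bcl2l1 averaged at least 1 FPKM only through its level in wt/fl, where it was higher. Among genes from 1 to 10 FPKM, where Fas and Bcl2l1 lie, 1.63% were that much higher and 2.65% that much lower. Without the added 1 FPKM, Ngfr (2.53 and 1.58 FPKM) and Tnfrsf21 (2.70 and 1.75 FPKM), named after their values were seen, also passed 1.5-fold lower, which made 3 in each direction.

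The ligand genes Tnf and Lta held the largest positive log2 ratios of the pathway. Tnf, which encodes the ligand of Tnfrsf1a and Tnfrsf1b, was at 12.4 FPKM in wt/fl against 22.3 FPKM in fl/fl (chr17:35336336-35338941, mm9), a log2 ratio of 0.80. Lta, which encodes lymphotoxin alpha, another ligand of both TNF receptors, was at 39.2 and 62.9 FPKM (chr17:35340110-35342296, mm9), a log2 ratio of 0.67. The annotated ends of these neighbouring genes are 1168 bases apart. Ltb, whose product joins lymphotoxin alpha on the cell surface and whose gene lies on the other side of Tnf (chr17:35331452-35333250, mm9), was at 242 and 262 FPKM, a log2 ratio of 0.12. So the most abundant ligand gene of the locus differed least. Tnfsf13b, the gene of BAFF itself, was at 0.282 FPKM in wt/fl against 0.194 FPKM in fl/fl and is named here for its role. Of the 15 ligand genes, 5 were above a mean of 1 FPKM, and Cd70 was listed at 0 in both genotypes. Of the 5, 3 were higher and 2 lower in fl/fl, and 50.5% of all genes were higher.

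Among the other receptors of the family, Cd40, which shares TRAF2, TRAF3 and TRAF6 with the members, was at 69.8 FPKM in wt/fl against 85.9 FPKM in fl/fl, a log2 ratio of 0.30. Tnfrsf18 was at 19.1 and 19.6 FPKM and Tnfrsf26 at 7.82 and 8.41 FPKM. Fas, a death receptor that rises on germinal center B cells, was at 4.43 FPKM in wt/fl against 7.19 FPKM in fl/fl, a log2 ratio of 0.59. Its entries differed in direction, with 3.36 and 6.55 FPKM for the main entry and 1.06 and 0.640 FPKM for the minor entry. Of the 13 receptor genes averaging at least 1 FPKM, 7 were higher and 6 lower in fl/fl, and 50.5% of all genes were higher. Tnfrsf17, the third receptor of the BAFF system, found on plasma cells, was listed at 0 in both genotypes.

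Genes for proteins that act with the TRAFs had log2 ratios from −0.29 to 0.18. Traf3ip3 was at 112 FPKM in wt/fl against 108 FPKM in fl/fl, Tank at 48.7 and 55.4 FPKM and Traf7 at 27.9 and 25.4 FPKM. Of the E3 ligases and deubiquitinases, Birc3, which encodes cIAP2, was at 111 and 138 FPKM, a log2 ratio of 0.31. Birc2, which encodes cIAP1, was at 50.4 and 43.8 FPKM, a log2 ratio of −0.20. Fam105b, the gene of the linear deubiquitinase OTULIN, was at 85.5 and 102 FPKM. The median log2 ratio was −0.055 over the 16 genes of that list and −0.030 over the 9 measured TRAF-binding genes.

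In the TNF receptor 1 complex, Casp8, the initiator caspase of death receptors, was at 48.6 FPKM in wt/fl against 57.2 FPKM in fl/fl. Cflar, its inhibitor, was at 45.8 and 42.8 FPKM, and Ripk3, a kinase of necroptosis, at 19.5 FPKM in each genotype. The 17 kinases downstream of the TRAFs had log2 ratios from −0.16 to 0.15, with Map3k1 at 92.8 and 93.1 FPKM, Ikbkb at 67.4 and 61.0 FPKM and Tab2 at 61.5 and 62.3 FPKM.

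At the end of the pathway, Nfkb2 and Relb, the factors that NIK sets free, were at 38.05 and 39.5 FPKM and at 27.2 and 24.7 FPKM. Of the canonical NF-kB genes, Rel was at 139 FPKM in wt/fl against 120 FPKM in fl/fl, Nfkbia, an inhibitor, at 48.8 and 58.9 FPKM, and Nfkbie at 51.1 and 53.2 FPKM. Of the survival genes, Mcl1 was at 307 and 324 FPKM, Bcl2 at 65.5 and 66.0 FPKM, and Bcl2a1b, a close copy of its neighbours with which it may share fragments, at 32.6 and 35.0 FPKM. Bcl2l11, which encodes BIM and is in the same list, was at 26.6 and 20.1 FPKM, a log2 ratio of −0.39. Of the 7 genes of that list averaging at least 1 FPKM, 4 were higher and 3 lower in fl/fl, and 50.5% of all genes were higher. Bcl2l1, which encodes BCL-XL, was at 1.76 FPKM in wt/fl against 0.785 FPKM in fl/fl, a log2 ratio of −0.63, and without the added 1 FPKM the fl/fl level was 0.448 of that in wt/fl.

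**Figure D4:**
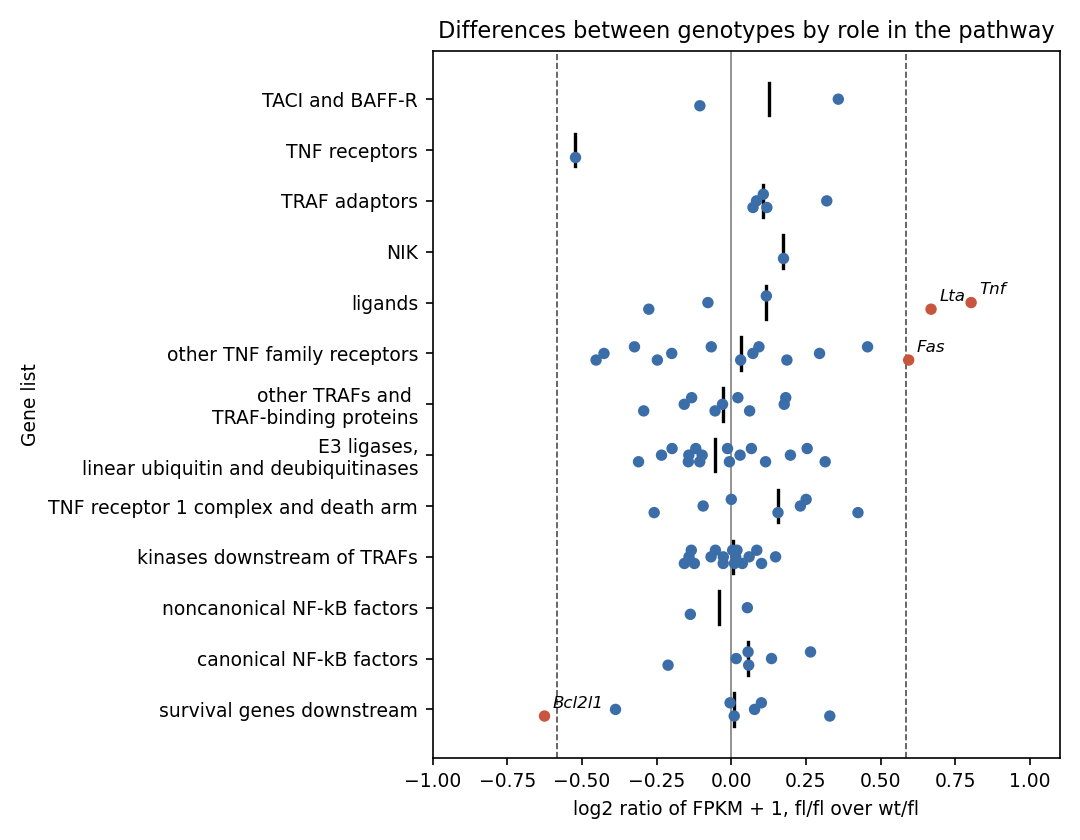
Log2 ratio of FPKM + 1, fl/fl over wt/fl, for each gene averaging at least 1 FPKM (points, red and named past 1.5-fold), by role in the pathway, with the median of each list as a black bar and 1.5-fold as dashed lines. The 9 members in the top 4 lists lie within 1.5-fold, and Tnf, Lta, Fas and Bcl2l1 lie past it.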

How the data were processed

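Follicular B cell RNA was isolated, amplified with the Ovation RNA-Seq system and sequenced from 6 samples. The authors' deposited table has the layout of Cuffdiff, and the submitters' processing notes name Bowtie, TopHat and Cufflinks, with versions and options not given in the sources used here. FPKM in the deposited table are the authors' values, 1 per genotype pooled over 3 samples. Its columns of fold changes, test statistics, p-values, q-values and calls hold the authors' own comparison and were not used. The notes name mm10, but 118 entries lie on sequences with the mm9 style of name (_random), and 0 of the 10 members end at the GRCm38 position, so positions are given as mm9. Starts in the table count from 0 (6191 of 18853 genes then have the RefSeq size, against 437 otherwise), and 1 was added.

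With Python 3.11.15 and pandas 2.3.3, FPKM were summed per gene name, leaving out 44 entries whose symbol had turned into a date. Log2 ratios used a pseudocount of 1 FPKM, and counts used genes averaging at least 1 FPKM and folds of 1.5 and 1.2. Steps were tested on simulated data. Genes were named by rule: all members, Myh9, the 3 most abundant genes of each other list, and any pathway gene past 1.5-fold. Tnfsf13b, Tnfrsf17, Cd70 and Elane were named for their role or for a level of 0. Sdc1, Ltf, Csf1r, Fcer2a, Bcl2l11, Ngfr and Tnfrsf21 were named after their values were seen. Members, lists and folds were chosen with earlier results of these data known. As the table holds pooled values, no test was run.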

Additional observations from a re-analysis of the deposited data

How the results depend on the processing

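Depth, sampling error and spread between samples are unknown for pooled FPKM, so no alternative could show whether a difference exceeds them. No paired analysis was possible because the table holds 1 value per genotype, and for the same reason no replicate could be left out. The alternatives were pseudocounts of 0.1 and 0.5 FPKM, no filter or a mean of at least 5 FPKM, upper quartile, median ratio and quantile scaling, the most abundant entry of each gene, and thresholds of 1.2-fold and 2-fold. A ratio was counted as moved if it shifted by 0.1 or more on the log2 scale. Of 71 recomputed member ratios 69 moved less, and the sign of all 9 was kept. The exceptions were Tnfrsf1b with a pseudocount of 0.1 FPKM (−0.63) and Traf3 by its most abundant entry (0.26). Part of the 71 could not move by construction. A filter leaves the ratio of a gene as it is, and only Traf3 has more than 1 entry. The number of members past the threshold was 0, but 1 (Tnfrsf1b) with a pseudocount of 0.1 FPKM or, an alternative chosen after the data were seen, with none, and 3 at 1.2-fold. The background was then 4.196%, 4.56% and 15.6% of all genes. The number of other pathway genes past the threshold, 4 of 82, became 17 at 1.2-fold and 0 at 2-fold. Of all genes, 2.32% passed at 1.5-fold, 15.6% at 1.2-fold and 0.497% at 2-fold. The number was 6 with a pseudocount of 0.1 FPKM, with none or by the most abundant entry. The share of all genes was then 4.196%, 4.56% and 3.07%. The number was 3 under quantile normalization and 3 of 65 under the filter of 5 FPKM, against 2.24% and 1.203% of the genes kept. The scalings shifted the median of all genes to between −0.0032 and 0.0063. Bcl2l1, at −0.63, was at −0.57 under quantile normalization, just short of 1.5-fold, at −0.81 with a pseudocount of 0.5 FPKM and at −1.07 with 0.1 FPKM.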
